A study of Danio rerio with 11 samples.

Results

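Wild-type tail tissue of the 21-somite stage was compared with wild-type intermediate mesoderm (IM) cells of the 4/5-somite stage, on 5 of the 11 arrays of the series. Members were every probe set of the Affymetrix Zebrafish Genome Array except the control probe sets, which made 15502 of 15617, and the arrays were the 3 labelled wild-type tail and the 2 labelled wild-type IM. The 6 arrays of spt embryos, which are homozygous for the b104 allele of tbx16, were not compared here. All embryos were offspring of fish carrying that allele crossed to a line with green fluorescent protein (GFP) under the pax2a promoter, and wild-type means spt+/+ among them.

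The IM arrays held RNA of GFP-positive cells sorted from pooled trunks, after tissue in front of the first somite was cut away and the rest was dissociated with enzymes. Few cells were collected, the purity of the sort was not measured again, and the RNA was amplified before labelling. The tail arrays held unamplified RNA of pooled dissected tails, with somites and presomitic mesoderm behind the yolk extension, the tip removed, and IM, notochord and spinal cord still present. Tail embryos were neither dissociated nor sorted for GFP. Stage, tissue, sorting and RNA amplification therefore differed together between the groups, and no array separates them, so a difference cannot be assigned to any of them. In bulk RNA, fewer cells of a type and less RNA per cell cannot be told apart either.

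As background, IM is the strip of mesoderm beside the somites that gives rise to the pronephric kidney, and in the zebrafish trunk also to primitive blood and to vessel precursors. Its cells carry transcription factors of the Pax, Lhx and Hnf families early and switch on transport proteins as tubules form. Tail paraxial mesoderm passes from tbx16- and tbx6-expressing presomitic cells, in which a segmentation clock of Notch target genes runs, to somites and then to muscle fibres. Hox genes mark position along the body, with genes of high number used towards the tail.

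The deposited signals set the 2 stages on different levels. Their median was 163 and 166 on the IM arrays and 261, 287 and 293 on the tail arrays, so all 5 arrays were quantile normalised together and the values below are signals after that step. The IM arrays correlated with each other at 0.894, the tail arrays at 0.959 to 0.964, and arrays of different groups at 0.699 to 0.714 (Pearson's r of log2 signals over 15502 probe sets, a description across probe sets of shared array design). Between the IM arrays 461 probe sets were at least 4-fold apart, and between any pair of tail arrays 2 to 10 were. The typical probe set was not more variable on the amplified arrays, since the median SD of log2(signal + 16) was 0.172 over the 2 IM arrays and 0.228 over the 3 tail arrays (an SD over 2 arrays tends to come out lower than one over 3). The IM arrays thus stood apart from each other in a limited number of probe sets with large differences, and IM values are given for each array of the genes described in full.

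In the limma fit, 3194 probe sets (20.6% of 15502) were higher in tail and 3771 (24.3%) were lower, at an adjusted p under 0.05. A log2 fold change here is tail minus IM of log2(signal + 16), given ± its standard error (SE) with n = 3 tail and 2 IM arrays, and it understates the change of dim genes. The balance between directions followed the normalisation. With deposited values as they were, 5528 were higher and 1749 lower, with each stage normalised alone and centred on its median 2602 and 5058, and with arrays scaled to the same 75th percentile 2771 and 4054. Higher calls were thus 45.9% of calls in the joint fit and 76.0%, 34% and 40.6% in those 3 alternatives, and the median log2 fold change over all probe sets was -0.12 against 0.41, -0.30 and -0.20. The direction of small differences is therefore not settled. A total of 2576 probe sets (16.6%) were called higher and 1658 (10.7%) lower under all 4 of these normalisations. That call, named robust below, is given beside each gene list, and counts of cell type markers are of calls in the joint fit.

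Exactly 1 gene symbol was given to 10795 probe sets, which made 8793 genes, each followed by its brightest probe set, except that the 15 genes with the largest differences in each direction were ranked by any of their probe sets. Of these genes, 1862 (21.2%) were higher in tail and 2090 (23.8%) lower, and 1526 (17.4%) and 956 (10.9%) were robustly so. The median log2 fold change over genes was -0.09. These shares are the background against which each gene group below is read.

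**Figure D1:**
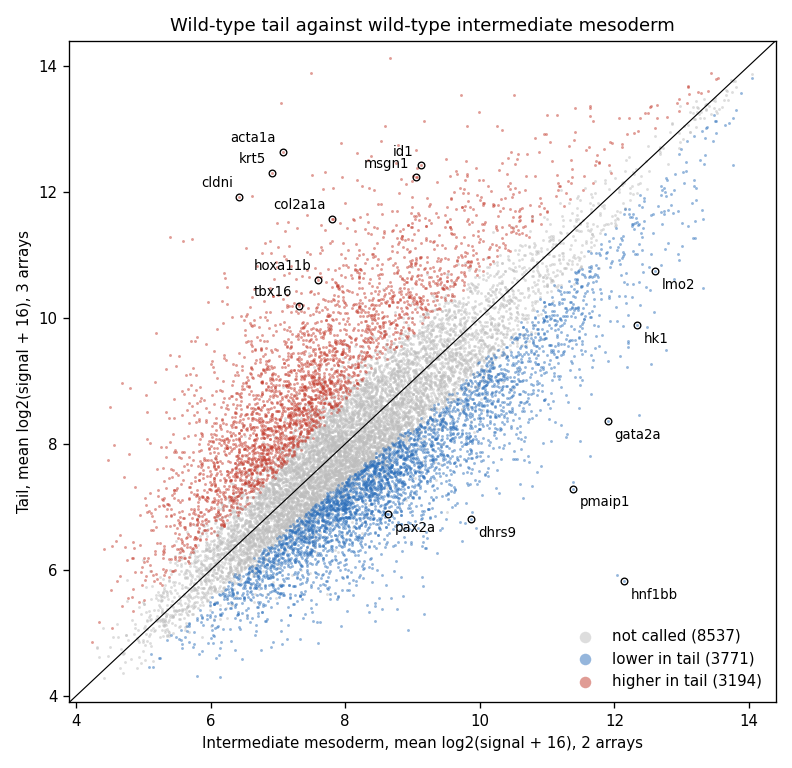
Mean normalised log2(signal + 16) of each probe set on the 2 IM arrays (horizontal axis) and the 3 tail arrays (vertical axis), 15502 points. Red points are the 3194 probe sets called higher in tail, blue points the 3771 called lower, grey points the rest, and the named genes run from acta1a at 5.57 to hnf1bb at -6.33.

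Among probe sets with a gene symbol, the largest differences towards tail were in muscle and skin genes, together with genes that most cells use. A further 4 called probe sets without a single symbol differed more towards tail than any of these. Among the 15 genes with the largest differences by the naming rule, acta1a, a skeletal muscle actin, was at 131 and 107 on the IM arrays against 6457, 5672 and 7013 on the tail arrays (5.57 ± 0.22, adjusted p = 7.0e-05). The fast troponin I gene tnni2b.1 (4.51 ± 0.29) and the myosin light chain gene myl13 (4.37 ± 0.30) were also of this kind. Skin genes in the same set were the claudin gene cldni (5.49 ± 0.23) and the keratin genes krt5 (5.39 ± 0.23) and krt4 (4.84 ± 0.26). The set also held hsp90aa1.1 (4.77 ± 0.22), a chaperone of myosin folding, the apolipoprotein gene apoc1 (4.45 ± 0.18), the zinc finger factor gene snai2 (4.43 ± 0.27) and flncb, an actin crosslinker of the filamin family (4.36 ± 0.23). The others were pfn1, an actin-binding profilin (4.61 ± 0.21), rpn2, a subunit of the enzyme that adds sugars in the endoplasmic reticulum (4.53 ± 0.26), fkbp9 (5.32 ± 0.29), aga (4.58 ± 0.39) and the RNA-binding protein gene khdrbs1a (4.43 ± 0.19). For khdrbs1a that was not the brightest probe set, which had means of 10406 on the IM and 7493 on the tail arrays (-0.49 ± 0.15), so its direction depended on the probe set. A second, dimmer probe set of aga was not called (-0.87 ± 0.38). Adjusted p reached at most 0.00040 among these 15, and by the rule every tail array lay above both IM arrays.

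Genes lower in tail were led by a kidney transcription factor by a wide margin. The hnf1bb gene, a homeobox factor of the early pronephros, was at 4332 and 4719 on the IM arrays against 39.01, 47.7 and 35.1 on the tail arrays (-6.33 ± 0.23, adjusted p = 6.4e-05), and the next gene, pmaip1, differed by -4.10 ± 0.32. Pmaip1 promotes cell death downstream of p53 and was at 3013 and 2353 against 204, 124 and 108, although its dimmer probe set was not called (0.04 ± 0.32). The set also held the homeobox cofactor gene meis2b (-3.83 ± 0.26), the blood and vessel factor gene gata2a (-3.55 ± 0.23), the glucocorticoid-responsive factor gene klf9 (-3.44 ± 0.30), the heparan sulphatase gene sulf2b (-3.49 ± 0.35) and the G protein regulator gene rgs5a (-3.42 ± 0.18). A muscle gene, the fast troponin T gene tnnt3b, also lay in this set, at 1585 and 1911 on the IM arrays against 144, 159 and 135 on the tail arrays (-3.44 ± 0.24). The remaining genes were ftr82, itm2ba, ntrnl2, slc9a7, cpa4, hars and arvcfb, with log2 fold changes from -3.99 to -3.27. For arvcfb, the brightest of 3 probe sets was not called (-0.81 ± 0.28) and neither was the dimmest (0.37 ± 0.16), so its lower call rests on 1 of 3. Where the dim group stayed under a signal of 100, as for hnf1bb in tail, the size of the fold depends on the constant added before the logarithm.

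The labelled cell types were first read from marker genes. Of 6 IM markers, 4 were measured and all 4 were lower in tail, with summed signals of 1958 to 2052 on the IM arrays and 668 to 764 on the tail arrays. The 4 were pax2a, pax8, lhx1a and cdh17. Since pax2a-driven GFP had chosen the IM cells, the pax2a call is no finding, and the calls of pax8 and cdh17 were not robust. Of 5 paraxial mesoderm markers, 4 were measured and all 4 were higher in tail (summed signal 1059 to 1477 against 7346 to 11662). Muscle markers, 4 of 6 measured, were likewise all higher (567 to 618 against 4916 to 6927), and so were 4 of 5 epidermal markers (988 to 1195 against 12254 to 17608). Among 6 blood markers, gata1a, tal1 and lmo2 were lower and hbbe3 was higher in tail (17547 to 20421 against 10095 to 14850). Notochord markers were higher for 3 of 5 (1157 to 1371 against 6154 to 7617), neural crest for 2 of 3 (912 to 2251 against 3514 to 5550) and neural for 2 of 5 (5781 to 6263 against 5273 to 6073). Of 4 anterior neural markers 1 was higher and 1 lower (718 to 1136 against 530.4 to 724), and of 3 endothelial markers 1, fli1, was lower (1668 to 1892 against 669.7 to 860.2). The 3 measured markers of yolk and endoderm were not called (514 to 562 against 542 to 2123). No measured marker was at 0 on any array, and the 2 hatching gland markers had no probe set with their symbol. The control probe set for a GFP variant read 365 and 432 on the IM arrays and 245, 372 and 336 on the tail arrays as deposited. The deposited medians were 163 and 166 against 261, 287 and 293, so these values are not on the same scale as the signals above. The sources used here do not state whether that probe set matches the GFP of the transgene.

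**Figure D2:**
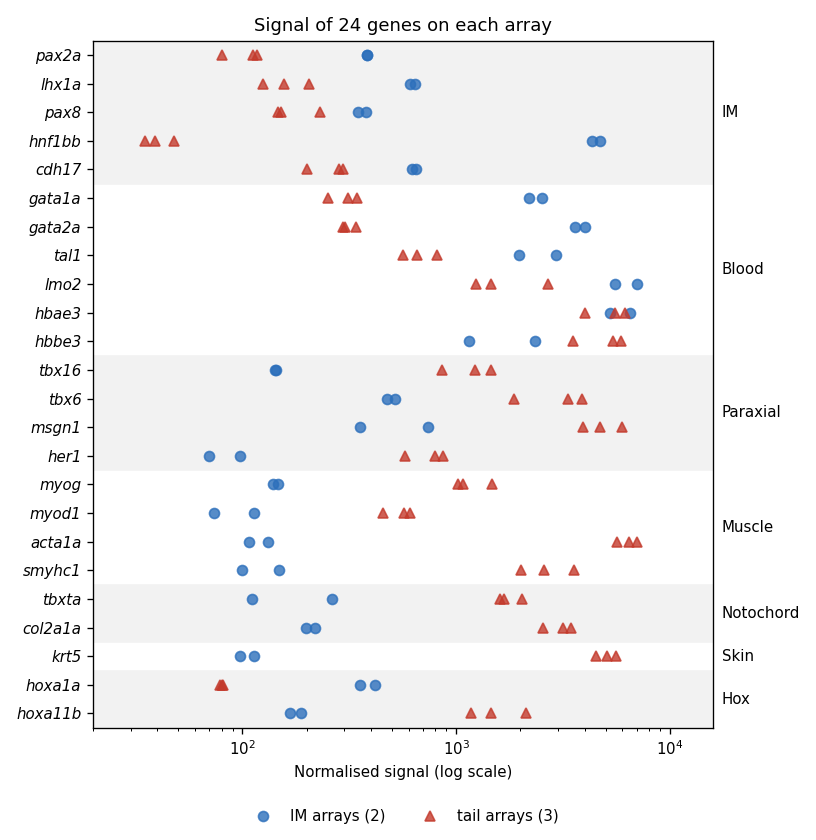
Normalised signal on each of the 5 arrays (logarithmic axis) for 24 genes of IM, blood, paraxial mesoderm, muscle, notochord, skin and Hox groups, with IM arrays as blue circles and tail arrays as red triangles. The 5 IM genes, gata1a, gata2a, tal1, lmo2 and hoxa1a are brighter on the IM arrays, hbae3 overlaps, and the other genes are brighter on the tail arrays. The 24 genes are a selection and not the full marker sets. Left out are markers such as noto, shha, tp63 and alas2, whose brightest probe sets were not called. Hnf1bb, gata2a, acta1a and her1 are not among the markers, and the Hox genes shown are those with the lowest and highest log2 fold change.

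IM and pronephric transcription factors divided between a larger set that was lower in tail and a smaller one that was higher. Of 24 measured genes, 10 were lower and 4 higher (8 and 4 robustly), and the median was -0.06, close to that of all genes. Pax2a, whose promoter drives the GFP used for sorting and which is required for pronephric tubule formation, was at 383 and 382 on the IM arrays against 117, 80.3 and 112 on the tail arrays (-1.76 ± 0.22, adjusted p = 0.0011). Every IM array lay above every tail array, and since pax2a-driven GFP chose the IM cells, this describes the sort and is no finding. A second pax2a probe set gave -0.86 ± 0.18, a call that was not robust. Lhx1a, a LIM homeobox factor of the same field, was at 605 and 642 against 204, 157 and 125 (-1.87 ± 0.26), and pax8 was at 346 and 377 against 147, 151 and 231. The pax8 call was not robust, with log2 fold changes from -1.01 to -0.31 over the 4 normalisations. The other lhx1a probe sets gave -0.49 ± 0.17, not robustly lower, and 0.46 ± 0.53, which was not called.

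Paralogs among these factors did not always run together, and some differed between the IM arrays too. The iroquois gene irx1a was at 578 and 1156 on the IM arrays against 108, 74.4 and 97.02 on the tail arrays (-2.95 ± 0.33, adjusted p = 0.00082) while its paralog irx1b was at 644 and 589 against 1319, 1651 and 1614 (1.28 ± 0.23, adjusted p = 0.0049), so the 2 copies ran in opposite directions. The lateral mesoderm factor gene hand2 was at 866 and 2073 against 211, 350.2 and 455 (-2.00 ± 0.46). Six2a, a factor of kidney progenitors in mammals, was lower in tail at 418 and 555 against 107, 109 and 117 (-1.97 ± 0.21). Higher in tail were the nuclear receptor gene nr2f2 (1.77 ± 0.33), the podocyte factor gene wt1a at 46.4 and 43.96 against 88.3, 114 and 180.3 (1.18 ± 0.27) and the mesenchymal homeobox gene prrx1a (1.02 ± 0.30). Wt1a is used in the podocytes that filter blood in the formed pronephros. Its other 2 probe sets were not called (-0.55 ± 0.19 and -0.12 ± 0.17), so the higher call rests on 1 of 3.

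Pronephric transport and tubule genes gave calls in both directions, in shares close to those over all genes. Of 23 measured, 5 were higher in tail and 6 lower (4 and 1 robustly). The phosphate carrier gene slc20a1b was at 299 and 251 on the IM arrays against 1769, 1719 and 1566 on the tail arrays (2.55 ± 0.24, adjusted p = 0.00052). Of 7 measured subunits of the sodium-potassium pump, which powers tubular transport, 3 were higher and 1, atp1b1b (-0.68 ± 0.18, not robustly), was lower, with atp1b1a at 450.4 and 390.1 against 1988, 2248 and 2098 (2.29 ± 0.22) and atp1a1a.4 at 109 and 99.5 against 271, 413 and 781 (1.94 ± 0.41) robustly higher and atp1a1a.5 (0.64 ± 0.21) not robustly so. The other 3, atp1a1a.2, atp1a1a.3 and atp1a1b, were not called, and atp1b1b and these 3 were named after their values were seen. The podocyte sialoprotein gene podxl was higher by 1.86 ± 0.33. Cdh17, a cadherin of the pronephric duct, was lower at 624 and 651 against 199, 281 and 296 (-1.27 ± 0.26) and so was ret, a receptor tyrosine kinase, at 1061 and 891 against 269.9, 349 and 570.5 (-1.33 ± 0.35), but neither call was robust. Pdzk1ip1, encoding a small membrane protein, was the only robustly lower gene of the list, at 539 and 651 against 138, 104 and 88.7 (-2.29 ± 0.24). Pump subunits are used in many tissues, of which the tail held several.

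Blood transcription factors had the largest share of genes lower in tail among the 44 lists. Of 21 measured, 12 were lower and 2 higher (10 and 2 robustly), with a median of -1.13. Gata1a, the master factor of red cell differentiation, was at 2191 and 2509.5 on the IM arrays against 252, 342 and 313 on the tail arrays (-2.90 ± 0.26, adjusted p = 0.00045), and gata2a, which acts before it, at 4023 and 3612 against 339.7, 303 and 295 (-3.55 ± 0.23, adjusted p = 0.00021). Both were separated by several fold on every array. The erythroid factor gene nfe2 (-2.30 ± 0.23), the homeobox gene hhex (-2.15 ± 0.29) and klf3 (-2.07 ± 0.42) were lower as well. Tal1, a helix-loop-helix factor that specifies blood and vessels, was at 1967 and 2923 against 656, 563 and 817 (-1.81 ± 0.28), and its partner lmo2 at 5555 and 7013 against 1452, 2699 and 1236 (-1.87 ± 0.33). The homeobox cofactor gene meis1b (1.72 ± 0.27) and klf17 (1.16 ± 0.27) were the 2 genes higher in tail. The study had left out another wild-type IM array, which grouped apart and had far lower red cell genes such as gata1a, so levels of these genes on the 2 IM arrays kept are not independent of that choice.

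Haemoglobin genes did not follow these factors in the joint fit. The embryonic alpha globin gene hbae3 was at 5221 and 6538 on the IM arrays against 3999, 5523 and 6137 on the tail arrays (-0.19 ± 0.20, adjusted p = 0.48), and the groups overlapped. That closeness rests on the joint normalisation, since the log2 fold change of this probe set ran from -1.20 to -0.19 over the 4 normalisations. A second hbae3 probe set, whose probes are shared between transcripts, had means of 419.7 on the IM and 3442 on the tail arrays (2.94 ± 0.32), so the direction for hbae3 depended on the probe set. The embryonic beta globin gene hbbe3 was at 2331 and 1146 against 3534, 5441 and 5896 (1.56 ± 0.34), a call that was not robust. The 3 other globin genes measured, hbba2, hbbe2 and hbaa1, were called in neither direction. Without tail replicate 2 or tail replicate 3 no globin gene was called higher. Globin genes are near-identical copies of one another, and their signals may be shared.

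Heme and iron genes were more often higher in tail, with 6 of 15 higher and 1 lower, all 6 and 1 robustly. Without tail replicate 2 the 6 fell to 3, and without IM replicate 2 the 1 lower call was lost. Alas1, the general form of the first enzyme of heme synthesis, was at 214 and 318 on the IM arrays against 1099, 645 and 960.0 on the tail arrays (1.69 ± 0.33, adjusted p = 0.0060), whereas alas2, its red cell form, was at 282 and 291 against 203, 281 and 284 (-0.17 ± 0.24, adjusted p = 0.59). Slc25a38b, a mitochondrial carrier (1.49 ± 0.23), the iron importer gene slc11a2 (1.18 ± 0.28), glrx5 of iron-sulphur cluster assembly (1.06 ± 0.28) and hebp2 (0.80 ± 0.20) made up most of the rest. The ferritin heavy chain gene fth1a was lower by a small amount, at 10305 and 10663 against 8599, 8156 and 8022 (-0.34 ± 0.08, adjusted p = 0.010). Erythroid membrane and carbonic anhydrase genes gave 1 higher and 1 lower of 10 (1 and 0 robustly), counts that moved to 2 higher without either IM array, to 3 lower without IM replicate 1 and to 0 lower without tail replicate 1 or 2.

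Myeloid and endothelial genes each split between the directions. Of 17 myeloid genes, 3 were higher and 4 lower (3 and 3 robustly), with 1 higher without IM replicate 1, tail replicate 1 or tail replicate 2. Cebpa, a granulocyte factor, was at 1446 and 1627 on the IM arrays against 232, 354 and 313 on the tail arrays (-2.32 ± 0.28, adjusted p = 0.0010) and spi1b, which encodes the myeloid factor Pu.1, at 297 and 464 against 66, 62.02 and 70.17 (-2.24 ± 0.23), both lower in tail. Ncf1, a subunit of the phagocyte oxidase, was lower (-1.42 ± 0.17), whereas the lysozyme gene lyz (0.70 ± 0.19) and the brighter probe set of coro1a, an actin regulator of leukocytes (1.84 ± 0.27), were higher. That coro1a probe set carries the sequence cluster number of the cldni probe set, and the other coro1a probe set was not called (0.16 ± 0.18), so coro1a is uncertain. The matrix metalloproteinase gene mmp9 was higher (0.75 ± 0.24), and all 4 probe sets of mpx, the neutrophil peroxidase, were lower, the brightest without a robust call (-0.81 ± 0.24) and the other 3 robustly (-1.68 ± 0.17, -2.26 ± 0.18 and -1.88 ± 0.19). The second spi1b probe set was not called (-0.13 ± 0.19). In the 20 endothelial genes, 3 were higher, of which 1 robustly, and 5 were lower, all robustly, and the lower ones were gata2a, tal1, fli1 (-2.03 ± 0.25), the sphingosine receptor gene s1pr1 at 616 and 623 against 157, 166 and 166 (-1.83 ± 0.21) and hey2, a Notch target of arteries (-1.79 ± 0.26). Kdrl, a receptor for vascular growth factor, was at 57.5 and 615 against 363, 269 and 229, and the 2 IM arrays alone spanned the tail values.

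Presomitic and early paraxial mesoderm genes were mostly higher in tail. Of 31 measured, 19 were higher and 2 lower, all robustly (1 lower without tail replicate 1 or 2), with a median of 1.49. Tbx16, the T-box factor mutated in spt embryos, was at 141 and 143 on the IM arrays against 1463, 855 and 1229 on the tail arrays (2.89 ± 0.30, adjusted p = 0.00066), and its second probe set gave 4.02 ± 0.22. Msgn1, a helix-loop-helix factor that drives presomitic fate, was at 357 and 737 against 5942, 4735 and 3923 (3.18 ± 0.34, adjusted p = 0.00070), and tbx6 at 473 and 515 against 3864, 3354 and 1873 (2.51 ± 0.33). The clock gene her1 was at 69.5 and 96.98 against 799, 871 and 577 (2.94 ± 0.28). Tcf15, a factor of epithelial somites, was higher by 2.95 ± 0.30 and mespaa, which marks the next somite boundary, by 1.90 ± 0.20. Lfng, a sugar transferase that modifies Notch, was lower at 4676 and 4191 against 2417, 1715 and 3317 (-0.88 ± 0.27), as was hoxb1a. Apoc1 was carried in this list and is also a gene of the yolk syncytial layer.

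Tailbud and posterior identity genes gave 14 higher and 1 lower of 31 (11 and 0 robustly), although the tip of the tail had been removed. The 14 fell to 7 without tail replicate 1 and to 9 without IM replicate 2. Tbxta, the zebrafish Brachyury gene of tailbud and notochord, was at 111 and 261 on the IM arrays against 2028, 1670.4 and 1605 on the tail arrays (3.24 ± 0.37, adjusted p = 0.00087). The Wnt target gene sp5l was higher by 2.55 ± 0.30 and cyp26a1, which degrades retinoic acid at the tail end, was at 49.6 and 53.9 against 496, 205 and 279 (2.25 ± 0.34). Wnt11 (2.01 ± 0.39) was also higher. Cdx4, a caudal factor that sets Hox expression, was at 1018 and 3160.3 against 5238, 5093 and 4371 (1.44 ± 0.42) in a call that was not robust, and IM replicate 2 lay much nearer to tail than IM replicate 1. The lower gene was bmp4, at 420.4 and 364 against 137, 116 and 179 (-1.36 ± 0.24), and its call was not robust.

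Hox genes of high number were mostly higher in tail, and those of low number were mixed. All 42 measured Hox genes were followed by paralog group, the number in the gene name, and 20 were higher and 6 lower in tail (18 and 2 robustly). In groups 9 to 13, 12 of 17 were higher, all 12 robustly, and the other 5 were not called, with a median of 1.66. The lowest value of these groups was that of hoxd13a (-0.28 ± 0.33, adjusted p = 0.52). In groups 5 to 8, 6 of 12 were higher and 2 lower (4 and 0 robustly), with a median of 0.76. In groups 1 to 4, 2 of 13 were higher and 4 lower (2 and 2 robustly), with a median of -0.28.

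The posterior genes were carried by clearly separated signals. Hoxa11b was at 189 and 167 on the IM arrays against 1179, 2121 and 1463 on the tail arrays (3.01 ± 0.31, adjusted p = 0.00067), and its paralog hoxa11a at 703 and 761 against 671, 679 and 817 (-0.02 ± 0.24, adjusted p = 0.95), so these copies of 1 ancestral gene were not alike. Hoxd10a was at 207 and 277 against 1225, 1855 and 1758 (2.65 ± 0.29), hoxc11a at 203 and 367 against 1809, 1705 and 1652 (2.58 ± 0.30) and hoxd11a at 91.5 and 321 against 1038, 1186 and 1165 (2.59 ± 0.47). The other 8 called genes of these groups were hoxa9a (2.61), hoxd9a (2.57), hoxa10b (2.55), hoxc13a (2.44), hoxc9a (1.66), hoxb10a (1.52), hoxa9b (1.18) and hoxc12b (1.13). Not called, besides hoxa11a and hoxd13a, were hoxb9a (0.47), hoxa13b (0.29) and hoxc11b (0.52 ± 0.22, adjusted p = 0.089).

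At the other end of the clusters, hoxa1a was at 417 and 356 on the IM arrays against 81.1, 78.5 and 80.3 on the tail arrays (-2.06 ± 0.18, adjusted p = 0.00043) and hoxb1a at 383 and 384 against 125, 121 and 164 (-1.40 ± 0.21), both robustly lower in tail. Hoxb1a is a marker of a single hindbrain segment. Hoxb2a (-0.87) and hoxc3a (-0.96) were lower without a robust call. Hoxb3a, at 181 and 279 against 2034, 1519.6 and 868 (2.54 ± 0.40), and hoxa4a, at 90.05 and 78.6 against 302, 282 and 263 (1.57 ± 0.19), were both robustly higher. In the middle of the clusters, hoxb7a (-1.04) and hoxb8b (-1.27) were lower without a robust call, and hoxc6b (1.94), hoxc5a (1.17), hoxb5a (1.07) and hoxb5b (0.87) robustly higher. The brightest hoxc8a probe set was at 485 and 2714 against 3185, 1872 and 3051 (1.18 ± 0.65, adjusted p = 0.18), with 1 IM array between the tail values and the other far below them. Another hoxc8a probe set was robustly higher, at 34.5 and 34.4 against 383, 426 and 563 (3.21 ± 0.22), and the third was not called (0.60 ± 0.28).

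**Figure D3:**
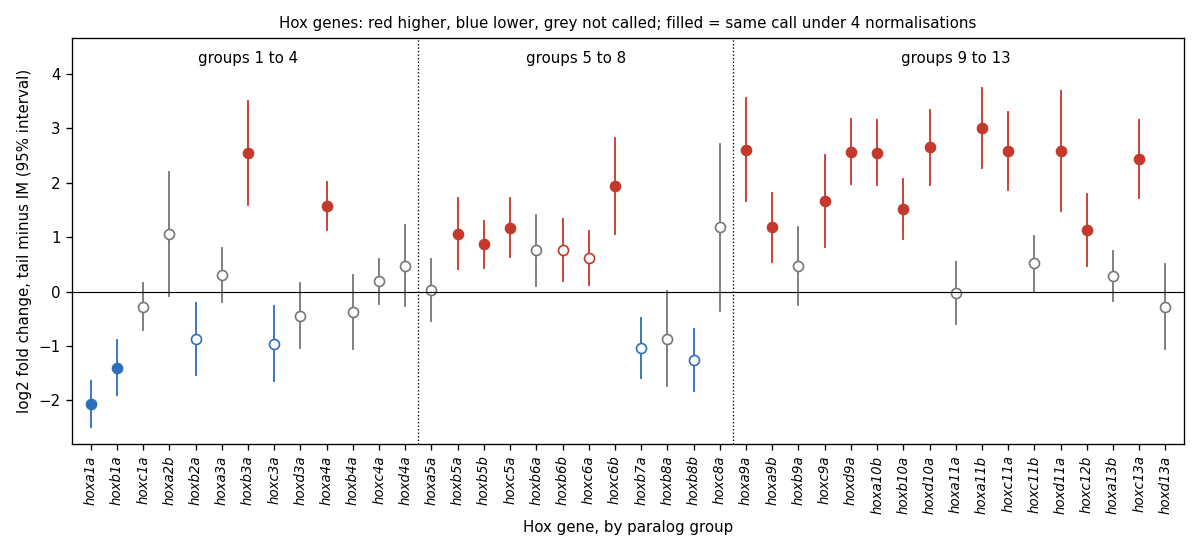
Log2 fold change (tail minus IM) of the 42 measured Hox genes in order of paralog group, with 95% confidence intervals from limma (n = 3 tail and 2 IM arrays). Filled points were called in the same direction under all 4 normalisations. Points of groups 9 to 13 run from -0.28 to 3.01 and those of groups 1 to 4 from -2.06 to 2.54.

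Myogenic regulators were higher in tail for 10 of 22 genes and lower for 4 (9 and 0 robustly). Myf5, the first of the muscle-determining factors, was at 218 and 149 on the IM arrays against 2430.1, 1841 and 2024 on the tail arrays (3.42 ± 0.28, adjusted p = 0.00035), and myog, which acts at fusion, at 146 and 138 against 1021, 1076 and 1469.9 (2.91 ± 0.27). Myod1 was higher by 2.38 ± 0.26, the factor gene mef2d by 3.27 ± 0.24 and cdkn1ca, an inhibitor of the cell cycle in slow muscle precursors, by 3.22 ± 0.32. The 4 lower genes, mstnb (-1.22 ± 0.20), pax7a (-1.01 ± 0.23), tbx18 (-0.85 ± 0.27) and en2a (-0.70 ± 0.21), were not robust by their brightest probe sets and fell to 2 without tail replicate 1. Of 4 pax7a probe sets 3 were lower, and 1 of these was robust, at 289 and 311 against 98.7, 92.6 and 80.8 (-1.57 ± 0.18).

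Sarcomere genes held members of both directions at high signal. Of 47 measured, 23 were higher and 7 lower (22 and 4 robustly). Smyhc1, the slow muscle myosin heavy chain, was at 148 and 99.1 on the IM arrays against 2007, 3546 and 2569 on the tail arrays (4.27 ± 0.33, adjusted p = 0.00030), and the actin gene actc1a at 544 and 581 against 7304, 9049 and 10870.3 (3.96 ± 0.20). Unc45b, a myosin chaperone, was at 360.3 and 278 against 2643, 2805 and 2277 (2.96 ± 0.24). Actc1a and unc45b were chosen here after their values were seen. Against these, the fast troponin I gene tnni2a.4 was at 920.3 and 945 against 91.1, 130.3 and 97.4 (-2.97 ± 0.23, adjusted p = 0.00031) and mybpc3, a myosin-binding protein, at 540.5 and 495 against 116, 125 and 177 (-1.80 ± 0.24). With tnnt3b, whose values stand above, these were 3 contractile genes robustly brighter on the IM arrays. For tnni2a.4 this rests on 1 of 2 probe sets, since the other, dim on every array, was not called (-0.14 ± 0.16). The small heat shock gene hspb1, carried in this list, was also lower in tail (-1.13 ± 0.17). In the calcium and energy list, 13 of 31 were higher, all robustly, led by asph (3.60 ± 0.31) and aldoab (2.98 ± 0.25), and 8 lower, of which atp2a1l, of the calcium pump family, alone was robust at 693 and 755 against 116, 174 and 92.8 (-2.40 ± 0.28). Those 8 became 5 without IM replicate 2, tail replicate 1 or tail replicate 3.

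Matrix genes showed the clearest single direction. Of 50 collagens, laminins and other matrix genes, 29 were higher and 1 lower in tail (28 and 1 robustly), with a median of 1.38. Hapln1a, a linker of hyaluronan, was at 116 and 73.2 on the IM arrays against 1949.8, 1815 and 2559.5 on the tail arrays (4.27 ± 0.30, adjusted p = 0.00024), col2a1a, the collagen of notochord sheath and cartilage, at 218 and 199 against 3155, 3446 and 2557 (3.76 ± 0.24), and the laminin gene lamc1 at 34.1 and 40.9 against 390.0, 880.1 and 548 (3.47 ± 0.34). The collagen-modifying enzyme gene plod1a was higher by 3.82 ± 0.35 and col8a1a by 3.58 ± 0.40. The single lower gene was loxa, a collagen crosslinking oxidase, at 69.99 and 83.7 against 26.4, 23.9 and 25.5 (-1.17 ± 0.15), and 2 were lower without IM replicate 2. A bright member with a narrow interval in the joint fit was the laminin gene lamb1a, at 2660.5 and 3854 against 3674, 3290.3 and 2874 (95% interval -0.46 to 0.52), chosen after its values were seen. Its log2 fold change ran from -1.001 to 0.027 over the 4 normalisations, so this closeness rests on the joint one. Of the 6 hapln1a probe sets 4 were higher and 1, a dim one, was lower (-1.42 ± 0.17).

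Notochord and floor plate genes, several of them in the matrix list as well, were higher for 23 of 38 and lower for 4 (21 and 3 robustly), and their median of 1.76 was the highest among the 44 lists. The 4 lower fell to 2 without tail replicate 3. The sheath collagen gene col9a1b was higher by 3.59 ± 0.32. Shha, the notochord and floor plate ligand, was at 492 and 588 against 864, 557 and 686 (0.35 ± 0.28, adjusted p = 0.34), and noto, a notochord homeobox gene, at 206 and 193 against 522, 569 and 196 (0.91 ± 0.45, adjusted p = 0.14), so neither of these markers was called. Cavin1b, of caveolae, was lower at 300.2 and 361 against 71.4, 59.7 and 72.6 (-2.04 ± 0.19).

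Genes of skin were higher in tail for 23 of 44 and lower for 7 (21 and 4 robustly). Krt5 was at 113 and 97.7 on the IM arrays against 4515, 5058 and 5623 on the tail arrays (5.39 ± 0.23, adjusted p = 7.0e-05) and epcam, an epithelial adhesion protein, at 174 and 481 against 1614, 1784 and 2954 (2.74 ± 0.46), whereas tp63, the factor of basal epidermal cells, was at 394 and 349.6 against 361, 706 and 537 (0.46 ± 0.33, adjusted p = 0.29). The values of that tp63 probe set overlapped between the groups, but a second one of nearly the same brightness was robustly higher, at 142 and 155 against 1019, 624 and 965 (adjusted p = 0.0011), so tp63 depended on the probe set. Lower in tail besides gata2a were ponzr1 at 1317 and 862 against 129, 193 and 179 (-2.58 ± 0.30), a gene known from the pronephros, and the keratin genes krt93 (-1.69 ± 0.19), krt91 (-1.36 ± 0.17) and krt18b (-1.12 ± 0.19), of which krt18b was not robust.

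Neural crest genes gave 8 higher and 6 lower of 26 (7 and 5 robustly). Snai2 was at 51.4 and 65.2 on the IM arrays against 1490.1, 1971 and 1342 on the tail arrays (4.43 ± 0.27, adjusted p = 0.00019), the crest factor gene foxd3 was higher by 2.45 ± 0.28, and the pigment genes gch2 (-1.86 ± 0.22) and mitfa (-1.66 ± 0.17) were lower. Sox9b, used in crest and in several other tissues, was at 2506 and 3639.9 against 1048, 749 and 749 (-1.83 ± 0.27).

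Neural genes were higher for 16 of 57 and lower for 8 (15 and 5 robustly), with a median of 0.04, and 10 were higher without tail replicate 1. Zic2a (2.84 ± 0.39), sox19a (2.79 ± 0.24) and the Delta ligand gene dlb (2.14 ± 0.34), all of neural progenitors, led the higher genes, and atoh1a (-2.22 ± 0.23), sox1a (-2.22 ± 0.25) and the glutamate decarboxylase gene gad2 (-1.71 ± 0.27) the lower ones, although 1 of 3 sox1a probe sets was higher (0.46 ± 0.15, not robustly). Elavl3, the pan-neuronal marker, was at 627 and 1150.3 against 1069, 1287 and 1143 (0.45 ± 0.31, adjusted p = 0.28). Genes of anterior brain and placodes were lower in tail for 18 of 37 and higher for 1, but most had low signals and only 6 were robustly lower and 0 robustly higher. Without tail replicate 1 the 18 fell to 9, and without tail replicate 2 to 11 with none higher. The eye and forebrain factor gene otx1 was at 328 and 392 against 43.4, 43.96 and 46.3 (-2.63 ± 0.17) and crx at 184 and 83.6 against 13.03, 18.4 and 10.5 (-2.24 ± 0.30). The head had been cut away from both tissues.

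**Figure D4:**
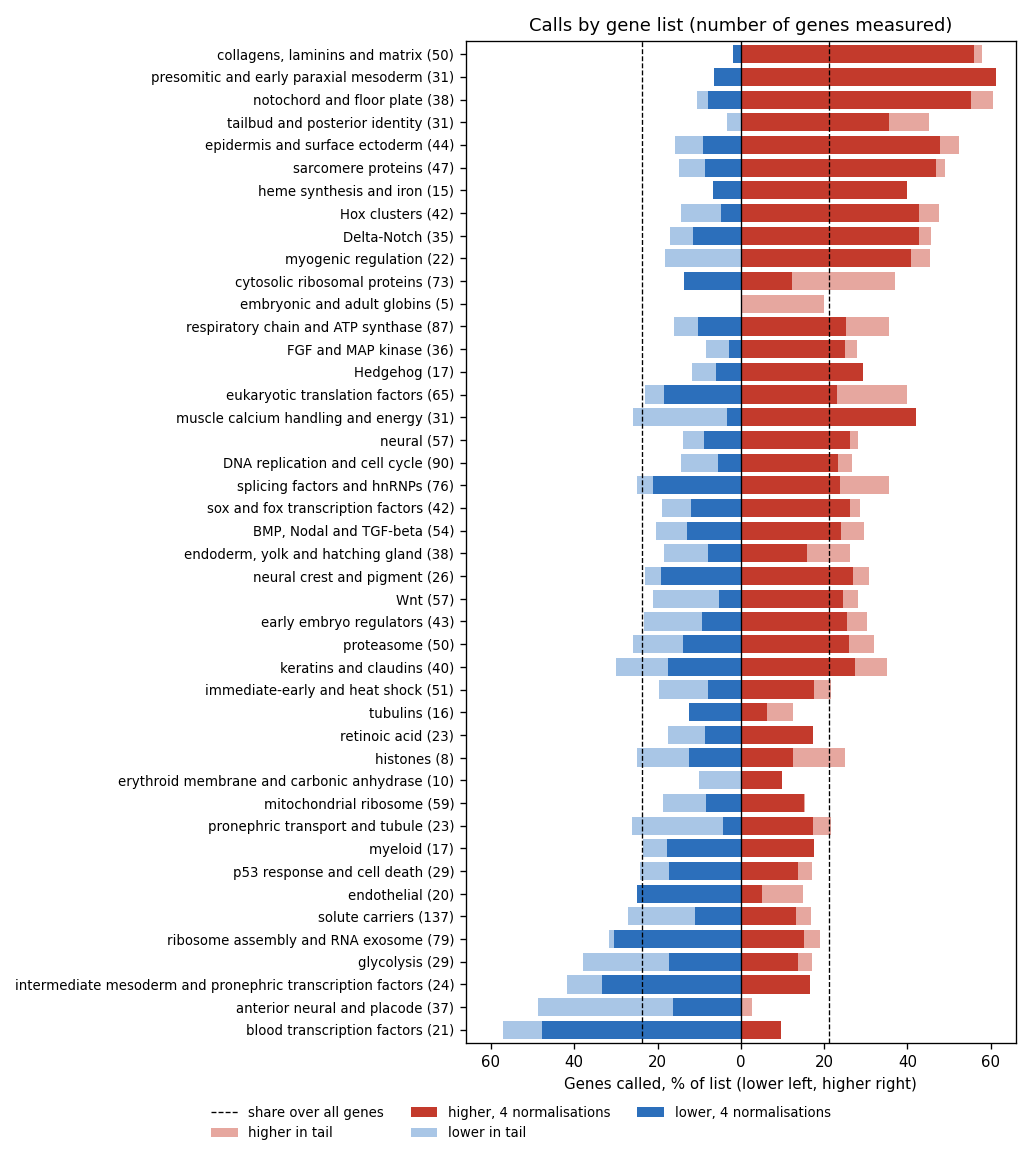
Share of the measured genes of each of the 44 lists called higher (red, to the right) or lower (blue, to the left) in tail, as percent of the list, with darker bars for genes called the same way under all 4 normalisations. Dashed lines mark the shares over all 8793 genes, 21.2% higher and 23.8% lower. Matrix, presomitic and notochord lists reach 58 to 61.3% higher, and blood transcription factors 57.1% lower.

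Endoderm, yolk and hatching gland genes gave 10 higher and 7 lower of 38 (6 and 3 robustly), and this list separated the tail arrays from each other. Without tail replicate 2 the 10 became 4. The transferrin gene tfa was at 71.8 and 54.3 on the IM arrays against 136, 436 and 1174 on the tail arrays (2.46 ± 0.75), and the apolipoprotein gene apobb.1 at 84.2 and 85.1 against 237, 697 and 2139 (2.86 ± 0.78). Apoa2, a yolk syncytial apolipoprotein, was at 278 and 298 against 236, 460.3 and 1772 (0.98 ± 0.74, adjusted p = 0.31). Tail replicate 3 held the highest tail signal for 28 of the 38 genes of the list (73.7%), against 34.9% of all 8793 genes, and the content of yolk-related tissue in the dissections was not tested. Lower in tail were the cardiac and endodermal factor genes gata4, at 571 and 607 against 115, 109 and 129 (-2.18 ± 0.20), and gata5, at 505 and 444 against 131, 118 and 192 (-1.61 ± 0.26).

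In the retinoic acid list, 4 genes were higher and 4 lower of 23 (4 and 2 robustly). Each count was 17.4% of the list, below the shares over all genes of 21.2% higher and 23.8% lower. Retinoic acid is made by aldh1a2, carried to the nucleus by cellular binding proteins and degraded by Cyp26 enzymes. Aldh1a2 was at 484 and 209.6 on the IM arrays against 1705, 2232 and 1417 on the tail arrays (95% interval 1.47 to 3.32, adjusted p = 0.0032), and the binding protein genes crabp2b (2.73 ± 0.39) and crabp2a (2.48 ± 0.55) were higher too. The degrading enzymes ran in opposite directions, with cyp26a1 higher, as given above, and cyp26b1 at 972 and 887 against 187, 224 and 198 (-2.11 ± 0.23). Of the 4 cyp26b1 probe sets 3 were lower in tail and the fourth, at -1.92 ± 1.12, was not called. Dhrs9, a retinol dehydrogenase, was lower at 910.0 and 937 against 89.9, 107 and 90.5 (-3.07 ± 0.21). The binding protein gene crabp1a and the retinoid X receptor gene rxrga were also called lower, neither robustly, so binding protein genes ran both ways. None of the retinoic acid and retinoid X receptor genes was robustly called.

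Delta-Notch genes were higher for 16 of 35 and lower for 6 (15 and 4 robustly). The higher genes were led by hey1, a Notch target, at 169 and 129.6 on the IM arrays against 1543, 2102 and 1294 on the tail arrays (3.31 ± 0.30, adjusted p = 0.00047), and also held hes6, a partner of the clock repressors, at 342 and 945 against 3236, 2626 and 2542 (2.26 ± 0.41). The ligand genes dlc (2.28 ± 0.33) and jag2b (2.24 ± 0.28) were higher. Hey2, another Notch target, ran the other way, as given above (-1.79 ± 0.26). Also lower were aph1b, a subunit of the protease that cuts Notch, at 2598 and 2009 against 643, 491 and 713 (-1.88 ± 0.27), and hdac1, a histone deacetylase, at 10205 and 10305 against 5672, 6022 and 5027 (-0.88 ± 0.11).

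For FGF and MAP kinase genes, 10 of 36 were higher and 3 lower (9 and 1 robustly). Targets of the pathway were among the higher genes. Il17rd was at 98.1 and 71.2 on the IM arrays against 1533, 2302 and 761 on the tail arrays (3.82 ± 0.46, adjusted p = 0.0010). The transcription factor gene etv4 (1.98 ± 0.25) and the inhibitor gene spry4 (1.77 ± 0.29) were the others named. The kinase gene mapk3 was higher by 3.43 ± 0.35 and the kinase gene upstream of it, map2k1, was lower at 1586 and 1680.0 against 489, 466 and 550.3 (-1.67 ± 0.24). The mapk3 call rests on 1 of 3 probe sets, since the others were not called (0.98 ± 0.40 and 0.56 ± 0.27).

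The Wnt list gave 16 higher and 12 lower of 57 (14 and 3 robustly), with 7 lower without tail replicate 2. The receptor gene fzd2 was at 105 and 119.5 on the IM arrays against 1183, 1570.2 and 1178 on the tail arrays (3.36 ± 0.26, adjusted p = 0.00031), and the corepressor gene tle2a was higher by 2.37 ± 0.32. The secreted inhibitor genes dkk3b, at 382 and 61.2 against 514, 766 and 1498, and wif1, at 889 and 130.0 against 1717, 1421 and 1572, were called higher (2.29 ± 0.72 and 2.12 ± 0.68) with IM arrays several fold apart, and the wif1 call was not robust. Lower were the kinase gene csnk1db (-1.45 ± 0.20) and ctnnbip1, an inhibitor of beta-catenin, at 3025 and 3634 against 1194, 1239 and 1309.9 (-1.40 ± 0.19).

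BMP, Nodal and TGF-beta genes were higher for 16 of 54 and lower for 11 (13 and 7 robustly). The BMP target gene id1 was at 558 and 524 on the IM arrays against 5058, 5691 and 5672 on the tail arrays (3.30 ± 0.18, adjusted p = 0.00013), and the transducer gene smad5 at 74.5 and 91.2 against 1268, 1778 and 921 (3.71 ± 0.33). The antagonist gene nog1 was higher by 2.44 ± 0.30. The 5 genes with the largest differences towards IM included the ligand genes bmp5 at 277 and 859.9 against 89.05, 152 and 88.98 (-2.05 ± 0.47), bmp6 (-1.64 ± 0.32) and gdf3, a partner of Nodal, at 624 and 542 against 149, 187 and 189 (-1.65 ± 0.23), all robustly lower. Ligand genes had no list of their own, and inhbb, encoding an activin subunit (2.17 ± 0.23, chosen after its values were seen), was robustly higher. Foxh1, a factor that carries Nodal signals to DNA, was lower at 745 and 423 against 88.3, 103 and 79.97 (-2.45 ± 0.28). Of 17 Hedgehog genes, 5 were higher and 2 lower (5 and 1 robustly). Leaving out any tail array brought the 5 to 3, and without IM replicate 2, tail replicate 1 or tail replicate 3 the 2 became 1. Gli3, a factor of the pathway that mainly represses, was at 649 and 691 against 216, 223 and 194 (-1.59 ± 0.22).

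**Figure D5:**
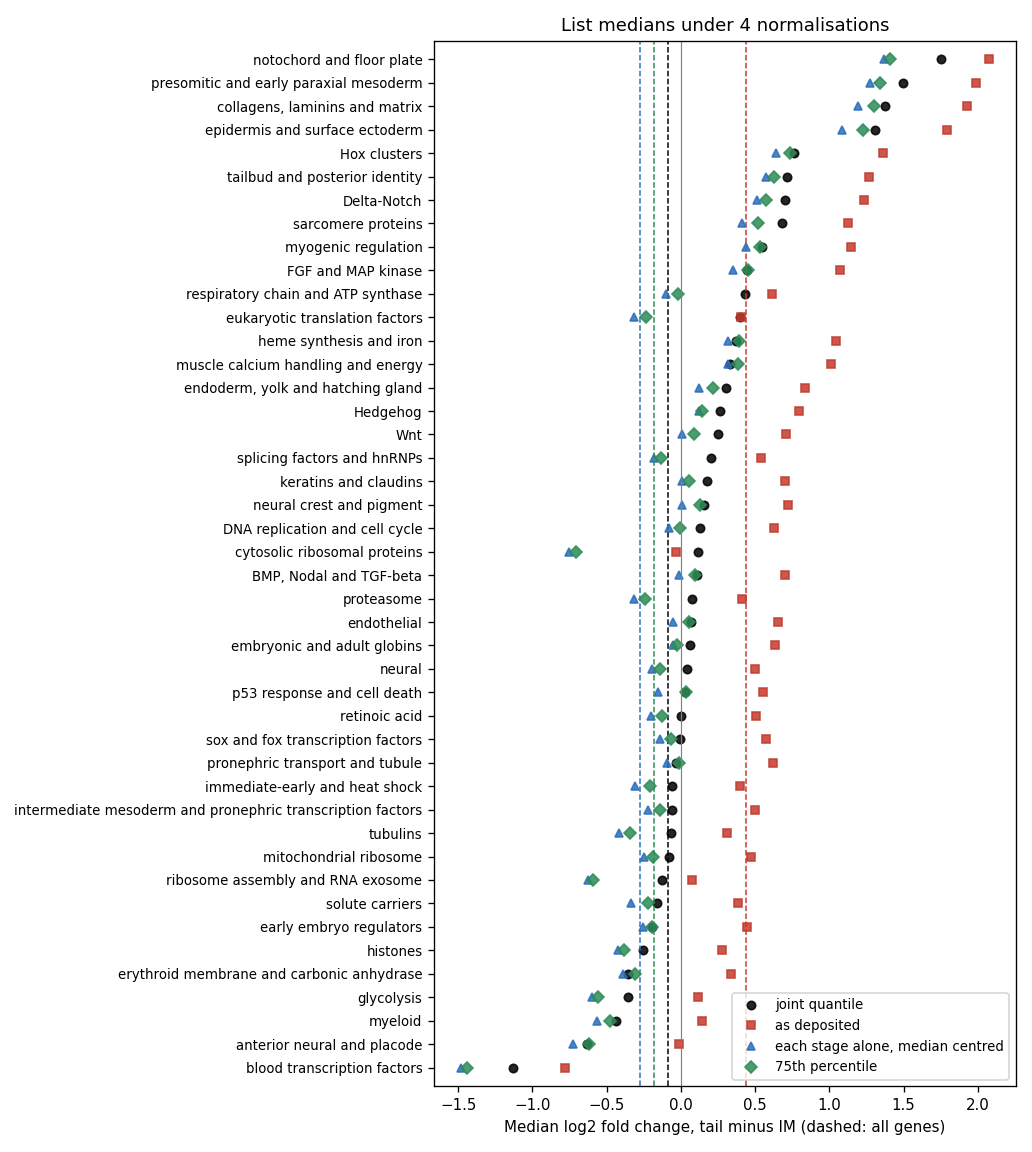
Median log2 fold change (tail minus IM) of the 44 gene lists under 4 normalisations, each with its own symbol. The median over all genes under each is marked by a dashed vertical line, and most lists move with these lines. Cytosolic ribosomal proteins do not between the joint fit (0.12) and deposited values (-0.03), where the median over all genes is -0.09 and 0.44. The matrix, presomitic and notochord medians stay above 1.19 and that of blood transcription factors stays below -0.78 in all 4.

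Genes of p53 response, cell death and stress differed in both directions. Of 29 p53 response and cell death genes, 5 were higher and 7 lower (4 and 5 robustly), shares of the size seen over all genes, and 9 were higher without IM replicate 2. Besides pmaip1, the lower genes included tp53inp1 at 1129.7 and 3171 on the IM arrays against 356, 347 and 365 on the tail arrays (-2.36 ± 0.43, adjusted p = 0.0047), bbc3, a promoter of cell death, at 442 and 505 against 119, 124 and 139 (-1.77 ± 0.20), the death receptor gene fas at 359 and 406 against 107, 121 and 128 (-1.56 ± 0.19) and birc2 (-1.31 ± 0.36). Mdm2, a standard p53 target chosen here after its values were seen, was not called (0.58 ± 0.36, adjusted p = 0.23). Ddit4, an inhibitor of growth signals, was higher at 30.4 and 34.7 against 401, 487 and 395 (3.19 ± 0.19). Btg2, bcl2l10, ccng1 and mcl1b were the other genes of the list called higher. In the immediate-early and heat shock list, 11 of 51 were higher and 10 lower (9 and 4 robustly), counts that became 17 higher without IM replicate 2 and 6 lower without tail replicate 1. In the joint fit both shares of this list were close to those over all genes. The higher genes were led by ier5, serpinh1b, myca, zfp36l2 and btg1. Among the lower were klf9, the heat shock gene hspa1b at 369 and 486 against 71.6, 80.9 and 61.7 (-2.34 ± 0.21) and fosl2 at 863 and 923 against 177, 168 and 202 (-2.20 ± 0.23). Atf3, induced by many stresses, was at 332 and 1394 against 172, 167 and 267, in a call that was not robust. The immediate-early genes egr1 (-0.12 ± 0.25) and jun (-0.61 ± 0.27), also chosen after their values were seen, were not called. The part of dissociation and sorting in these values was not tested.

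Cell cycle, metabolic and ribosomal genes gave mixed lists. DNA replication and cell cycle genes were higher for 24 and lower for 13 of 90 (21 and 5 robustly), with hmgb2a at 286 and 437 on the IM arrays against 6258, 6804 and 8719 on the tail arrays (4.28 ± 0.25, adjusted p = 0.00017) and the cyclin gene ccnd1 at 544 and 447 against 4735, 4582 and 4483 (3.18 ± 0.19) among the higher and lig1, which joins replicated strands, at 2815 and 2349.9 against 1180.0, 938 and 1243 (-1.20 ± 0.23) among the lower. In glycolysis, hexokinase hk1 was at 5566 and 4773 against 777, 1003 and 1027 (-2.45 ± 0.22, adjusted p = 0.00045) and the aldolase gene aldocb at 772 and 748 against 185, 199.5 and 140.2 (-2.04 ± 0.24), both lower, whereas the muscle aldolase gene aldoab at 90.1 and 94.6 against 689.6, 985 and 861 and the lactate dehydrogenase gene ldhba (2.80 ± 0.25) were higher. The list had 11 lower and 5 higher of 29 (5 and 4 robustly), with 7 lower without tail replicate 1 or tail replicate 2, and 2 or 3 higher without tail replicate 1 or tail replicate 3. The 13 lower cell cycle genes fell to 6 without tail replicate 1 and to 7 without tail replicate 3 or IM replicate 1.

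Among 73 cytosolic ribosomal protein genes, 27 were higher and 10 lower, but only 9 of the higher calls were robust against 10 of the lower. Leaving out 1 array brought the 10 lower calls to between 3 (without tail replicate 1) and 6, and the list median of 0.12 became -0.03, -0.75 and -0.71 with deposited values, stages normalised alone and the 75th percentile. Rpl27a was at 1229 and 1328 on the IM arrays against 8844, 7077 and 8271 on the tail arrays (2.64 ± 0.15, adjusted p = 0.00015) and rpl10a at 1772 and 2340.3 against 9350.0, 8844 and 10372 (2.21 ± 0.15), while rpl29 was at 11008 and 11580.1 against 7735, 7232 and 6523 (-0.66 ± 0.10), so subunits of 1 particle differed from each other. The brightest uncalled genes with intervals within -1 and 1 were of the same kind, namely rps4x (95% interval -0.17 to 0.16), rps27a (95% interval -0.32 to 0.03), rps20 (95% interval -0.36 to 0.03) and rpl12 (95% interval -0.21 to 0.13) with the mitochondrial gene COX1 (95% interval -0.38 to 0.03). That closeness rests on the joint normalisation, since the lowest of the 4 normalisations gave -1.02 for rps4x and -1.16 for rps20, and their direction is not settled.

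Respiratory chain genes were higher for 31 and lower for 14 of 87 (22 and 9 robustly), with atp5l at 261 and 195 against 2982, 2310.1 and 3546 (3.59 ± 0.28, with a dim second probe set at -1.66 ± 0.17) and ndufv2 at 3727 and 3252 against 1040.3, 983 and 1084 (-1.73 ± 0.20). Leaving out any tail array brought the 14 lower to 9, and the list median of 0.43 became -0.10 with stages normalised alone and -0.02 at the 75th percentile. Ribosome assembly and RNA exosome genes were lower for 25 and higher for 15 of 79 (24 and 12 robustly), with nhp2 (3.33 ± 0.26) and ddx52 (-2.38 ± 0.25) at the ends. Solute carriers were lower for 37 and higher for 23 of 137, with slc9a7, a sodium-proton exchanger, and slc20a1b at the ends. Without tail replicate 1 the 37 fell to 24. Of these calls, 15 of the lower and 18 of the higher were robust. Over all genes, too, robust calls were more often higher (17.4%) than lower (10.9%), although calls in the joint fit were more often lower. These counts therefore do not show which direction held more solute carriers under the other normalisations.

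The remaining lists gave calls in both directions. Translation factors were higher for 26 and lower for 15 of 65 (15 and 12 robustly), and subunits of the same initiation factor, eif2s2 at 565 and 626 on the IM arrays against 4023, 2959 and 3872 on the tail arrays (2.56 ± 0.22, adjusted p = 0.00042) and eif2s1a at 6457 and 5297 against 2094, 1557 and 1723 (-1.71 ± 0.19), ran in opposite directions. The list of splicing factors and related RNA-binding proteins was drawn by gene name, so not every member need be a splicing factor. It held 27 higher and 19 lower of 76 (18 and 16 robustly), with srsf7a (3.10 ± 0.20) and lsm14aa (-2.91 ± 0.35) at the ends. The proteasome list, also drawn by gene name, gave 16 higher and 13 lower of 50 (13 and 7 robustly), with psmd3 (2.78 ± 0.28) and psme2 (-1.57 ± 0.25) at the ends. Mitochondrial ribosome genes gave 9 higher and 11 lower of 59 (9 and 5 robustly), with 5 higher without tail replicate 3 and 6 or 7 lower without any 1 tail array. Of 8 histone genes 2 were higher and 2 lower (1 and 1 robustly), as were 2 and 2 of 16 tubulin genes (1 and 2 robustly), where 1 was higher without any 1 tail array.

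Keratins and claudins gave 14 higher and 12 lower of 40 (11 and 7 robustly). The keratin genes krt8 (3.83 ± 0.54) and krt97 (3.58 ± 0.26) followed krt5 and krt4, while the tight junction genes cldna, at 164 and 202 on the IM arrays against 27.9, 16.3 and 16.6 on the tail arrays (-2.46 ± 0.20, adjusted p = 0.00035), and cldnj (-2.35 ± 0.23) ran against cldni. Among 42 sox and fox genes, 12 were higher, led by foxb1b (3.22 ± 0.31), and 8 lower (11 and 5 robustly). In the list of early embryo regulators, 13 of 43 were higher and 10 lower (11 and 4 robustly). Pou5f3, the zebrafish counterpart of Oct4, was at 101 and 216 against 885, 697 and 689 (2.22 ± 0.34) and mycn at 345 and 156 against 1306, 1527 and 1016 (2.36 ± 0.38), both higher in tail. The egg coat gene zp2.6 was lower at 1292 and 2978 against 436, 342 and 419 (-2.26 ± 0.38), and the Nodal ligand gene ndr1 at 239 and 255 against 80.8, 80.3 and 106 (-1.33 ± 0.19).

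Probe sets of the same gene did not always run together. Of 1539 genes with several probe sets, 161 had all of them called in the same direction and 171 had probe sets called in opposite directions. Of the 64 genes given here with values that had several probe sets, 37 were called by the brightest and not called by at least 1 other. In 4 of the 64, probe sets were called in opposite directions. Among the uncalled ones, those of dlc (-0.60 ± 0.27), foxh1 (0.30 ± 0.20), ndufv2 (0.44 ± 0.27), ponzr1 (0.57 ± 0.25), hoxb7a (95% interval 0.09 to 2.52) and 1 of 2 of fosl2 (0.37 ± 0.26) leaned against the direction given above. So did the dimmest arvcfb probe set (0.37 ± 0.16). Values given for a gene are therefore those of 1 probe set. The control probe sets along gapdh read 3′ over 5′ ratios of 0.272 and 0.278 on the IM arrays and 0.605 to 0.851 on the tail arrays as deposited, and those along the actin control acta1 read 3.19 and 2.46 against 8.66 to 12.2. The middle acta1 probe set read 80.9 and 83.9 on the IM arrays and 1290 to 3460 on the tail arrays as deposited. The acta1 ratios were thus read at unlike signal levels and cannot be compared directly between the groups. The position of each probe set in its transcript was not analysed here, and its part in these values was not tested. The 95% interval lay within -1 and 1 for 4828 probe sets (31.1%) and 2614 genes (29.7%). Of the 8793 genes, 4841 were not called, and for 2484 of them the interval lay within these limits, while for the other 2357 a difference of more than 1 on the log2 scale lay inside the interval. With a signal of at least 100 on 1 of the arrays, 279 genes were at least 4-fold apart between the IM arrays. Between the lowest and highest tail array 8 genes were. Of the 279, 20 were called higher and 3 lower, where 21.2% and 23.8% of all genes were. These genes were picked for their IM spread, which itself makes a call less likely, so the low counts are no finding about them.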

How the data were processed

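Signals of 15617 probe sets on the Affymetrix Zebrafish Genome Array were used from 5 wild-type arrays (3 tail, 2 IM). Groups were taken from the sample labels. Replicate numbers are the numbers in these labels, which run on into the spt arrays and name no clutch or batch. The deposited values were linear intensity signals, which the authors computed with MAS5 version 5.0. How the stages were scaled against each other is not given in the sources used here, and another wild-type IM array that the authors left out was not analysed here. The number of arrays limits the precision. P-values measure the spread between pools of separate clutches, and for IM also that of sorting and amplification. The authors left out that IM array because it grouped apart, so the spread between the 2 kept may understate that between clutches.

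The 115 control probe sets were left out, the arrays were quantile normalised together, and log2(signal + 16) was fitted by limma (version 3.58.1, under R 4.3.3) with its variance trend, after a trial on simulated data. Benjamini-Hochberg adjustment ran over 15502 probe sets with a threshold of 0.05. Exactly 1 symbol was listed for 10795 probe sets, several for 135 and none for 4572, from the array's annotation with 1 symbol updated. A gene was followed by its brightest probe set, except in the naming of the largest differences, which took any probe set of a gene, and 4 matches of older names to another gene were not used. Named were up to 15 genes per direction with the largest differences (adjusted p under 0.05, arrays of the groups not overlapping, signal of at least 100 on every array of the brighter group), up to 5 called genes per list and direction, tissue markers, all Hox genes, and the 5 brightest uncalled genes with a 95% interval within -1 and 1. Members and lists were chosen with earlier results of these data known. The alternatives were other normalisations, constants of 1 and 64, a filter on low signals, unshared probe sets, other variance models, all 11 arrays, a replicate block and leaving out each array. No sequence was matched to the probe sets.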

Additional observations from a re-analysis of the deposited data

How the results depend on the processing

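The counts of probe sets depended most on the normalisation and on the variance model. Against 3194 higher and 3771 lower, deposited values gave 5528 and 1749, and Welch's test of each probe set, adjusted in the same way, 485 and 674. Other settings stayed within 1.5 times of the main counts except the replicate block. No sign of pairing by replicate number was seen, as correlations of same-numbered arrays' deviations were 0.002 and 0.007. With 2 IM arrays the IM deviations mirror each other, so these correlations are not independent and do not exclude pairing. With the number as a block 2376 were higher and 2419 lower. Leaving out 1 array gave 2557 to 3218 higher and 2778 to 3579 lower, where the fits with 1 IM array left assume that it varies like the tail arrays. Of 44 lists, 29 had more genes higher than lower, against 39 with deposited values, 17 with stages normalised alone and 19 at the 75th percentile. The number was 19 in Welch's test and 23 to 32 without 1 tail array. Intervals within -1 and 1 held for 4828 probe sets, for 2919 in Welch's test and for 3882 to 4189 without 1 array. The choice of calls under all 4 normalisations was made after seeing the data. Without 1 array, higher calls were 16 to 20 in the presomitic list, 25 to 31 in matrix, 22 to 24 in notochord and 17 to 20 in Hox, and lower calls 11 to 13 among blood factors.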

Other observations

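The 2 IM arrays were far apart from each other in some genes, most of them uncalled between the groups. A large spread between the IM arrays itself makes a call less likely. The choice of genes below was made on these values. All of them were at least 4-fold apart on the log2(signal + 16) scale, as were 279 genes in all, of which 155 were brighter on IM replicate 2. Pax2b, the paralog of the gene used for the sort, was at 296 on IM replicate 1 and 20.1 on IM replicate 2, and the iroquois gene irx3a at 1366 on IM replicate 1 and 211 on IM replicate 2. The crest and renal factor gene tfap2b was at 1541 on IM replicate 1 and 143 on IM replicate 2 and the homeobox gene msx1b at 1369 on IM replicate 1 and 139.9 on IM replicate 2, so these 4 developmental factors were all brighter on IM replicate 1. Vessel genes ran both ways, with kdrl at 57.5 on IM replicate 1 and 615 on IM replicate 2 and tek, the angiopoietin receptor, at 81.5 on IM replicate 1 and 554 on IM replicate 2 against aplnra, an apelin receptor, at 1145 on IM replicate 1 and 209 on IM replicate 2. The red cell membrane gene dmtn was at 87.4 on IM replicate 1 and 1313 on IM replicate 2, the chemokine receptor gene cxcr4b at 52.3 on IM replicate 1 and 608 on IM replicate 2, the heat shock gene hsp90aa1.2 at 59.4 on IM replicate 1 and 1039.6 on IM replicate 2 and the immediate-early gene ier2a at 324 on IM replicate 1 and 1588 on IM replicate 2, all brighter on IM replicate 2. A second probe set of hsp90aa1.2 was at 81.5 on IM replicate 1 and 85.2 on IM replicate 2, and that of pax2b at 21.0 and 20.3. For these genes the difference was thus seen on 1 of 2 probe sets. With 2 arrays, no more than these values can be given.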
